A study of Mus musculus with 3 samples.

Results

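The genes described here are 10 genes of B cell activation and of the NF-kB pathway in mouse spleen. They were chosen by name, with earlier results of these data known. They are the NF-kB subunits Rel and Nfkb1, the inhibitors Nfkbia, Nfkbid and Tnfaip3, and the response genes Myc, Bcl2a1b, Cd69, Cd83 and Cd86. All 10 were found among the 32285 genes of the count matrices. RNA of single splenocytes was counted in 3 droplet libraries (10x Genomics 5′ chemistry), where a unique molecular identifier (UMI) stands for each RNA molecule caught. The first, called control, combined C57BL/6 males carrying sham pumps with C57BL/6 females. The second, called Ang II, came from C57BL/6 males given angiotensin II (Ang II) by minipump for 2 weeks from an age of 10 weeks. The labels give the dose as 490 ug/kg/min, and the unit was not checked. These males also received placebo or 2-HOBA, a scavenger of reactive isolevuglandins. The third came from B6.SLE123 mice, a congenic, lupus-prone strain on the C57BL/6 background, treated for 6 weeks from an age of 7 weeks with 2-HOBA or placebo. The paper describes its B6.SLE123 mice as female, and the labels do not give their sex. All mice were labelled as 12 to 14 weeks old. In every library T cells had been depleted with CD3 beads, each condition was a pool of 3 mice, and 2 conditions shared a library. The 6 hashtag antibodies of a library, C0301 to C0306, were not named for a condition in the labels, so conditions within a library were not compared, and the 6 hashtag populations serve only to show the spread inside a library. Strain, treatment, the mix of sexes and the library itself cannot be told apart.

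NF-kB is a family of dimeric transcription factors that rest in the cytoplasm, held there by inhibitors of the I-kappa-B type. When a B cell binds antigen, a Toll-like receptor ligand or a CD40 signal, kinases mark the inhibitor for destruction and the dimer enters the nucleus. There it switches on survival genes, surface molecules that let the B cell speak to T cells, and its own inhibitors, which close a feedback loop. In mature B cells c-Rel, the product of Rel, and p50, made from the product of Nfkb1, are main partners.

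Cells were assigned to classes by marker genes, none of which is among the 10, and a class or subclass name below therefore means cells that look like that type by its markers. The gate gave 13299 B cells of 15700 kept cells in control, 11561 of 14023 in Ang II and 13005 of 16708 in B6.SLE123. Each of the 7 B cell markers was detected in the B cells of every library. The B cells held 27768534, 36035141 and 31193090 UMIs, with a median of 1766, 2740 and 1907 UMIs per cell, so B cells of the Ang II library were the most deeply counted. Levels are CPM, the UMIs of a gene per 1000000 UMIs of all genes in the same cells. With 1 library per group there is no test between groups and no p-value. Intervals are 95% exact intervals that cover counting error only, and beside them the 6 hashtag populations of each library are given.

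RefSeq promoters, from 250 bases before to 50 bases after an annotated start, were at hand for 5 of the 10 genes, in 8 promoters on GRCm38.p6. The kappa B consensus motif, the 10-base element bound by NF-kB dimers, was searched on both strands and found in 4 of these 8 promoters, against 8.46% of all 32851 mouse promoters of the same length. The 4 promoters belonged to Rel, Nfkbia, Nfkbid and Tnfaip3 and are printed because their genes are the subunit and the 3 inhibitors described below. They run 5′ to 3′ on the strand of the gene, with the motif matches in capitals.
Rel, chr11:23770920-23771219, minus strand: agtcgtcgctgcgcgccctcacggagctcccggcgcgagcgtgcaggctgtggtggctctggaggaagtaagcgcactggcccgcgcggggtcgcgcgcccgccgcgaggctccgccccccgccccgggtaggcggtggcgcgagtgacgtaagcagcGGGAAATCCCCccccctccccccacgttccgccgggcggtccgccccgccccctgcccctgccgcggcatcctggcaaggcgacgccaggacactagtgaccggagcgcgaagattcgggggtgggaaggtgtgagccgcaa
Nfkbia, chr12:55492598-55492897, minus strand: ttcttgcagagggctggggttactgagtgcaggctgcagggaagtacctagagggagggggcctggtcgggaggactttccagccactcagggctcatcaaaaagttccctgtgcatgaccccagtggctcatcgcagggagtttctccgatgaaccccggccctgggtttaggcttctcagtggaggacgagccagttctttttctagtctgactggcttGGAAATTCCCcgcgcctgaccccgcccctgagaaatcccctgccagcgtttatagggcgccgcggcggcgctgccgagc
Nfkbid, chr7:30422156-30422455, plus strand: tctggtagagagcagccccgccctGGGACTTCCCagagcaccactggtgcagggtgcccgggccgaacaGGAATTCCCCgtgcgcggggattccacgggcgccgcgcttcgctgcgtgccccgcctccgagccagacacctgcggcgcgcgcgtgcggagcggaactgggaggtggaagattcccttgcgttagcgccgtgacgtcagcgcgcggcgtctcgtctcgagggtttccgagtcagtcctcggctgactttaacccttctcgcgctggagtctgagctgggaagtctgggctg
Tnfaip3, chr10:19015361-19015660, minus strand: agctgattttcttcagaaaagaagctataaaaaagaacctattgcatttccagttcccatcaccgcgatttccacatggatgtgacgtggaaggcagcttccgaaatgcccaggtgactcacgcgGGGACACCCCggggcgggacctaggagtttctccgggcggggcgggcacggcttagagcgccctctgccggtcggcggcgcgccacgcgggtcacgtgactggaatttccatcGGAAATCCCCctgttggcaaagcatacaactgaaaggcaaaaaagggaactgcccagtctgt
In Nfkbia the match began 29 bases before the start site. In Nfkbid the matches began 226 and 181 bases before it, and in Tnfaip3 125 and 12 bases before it. In Rel the matches began 92 and 91 bases before the start site and overlapped by all but their end bases. The other 2 promoters of Nfkbid, the other promoter of Tnfaip3 and the promoter of Bcl2a1b held no match. A match describes letters and is not a measured binding site.

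In B cells the larger differences between libraries lay among the response genes other than Cd86. Myc, Cd83, Cd69 and Bcl2a1b were 1.6 to 1.9 times higher in B6.SLE123 than in control B cells, while Rel was lower and the 3 inhibitors and Nfkb1 stayed within 1.5-fold. In the Ang II library Cd83 and Myc were higher by about 1.5 to 1.6 times, and Bcl2a1b and Rel differed from control by less than 0.1 on the log2 scale. A gene was called where its ratio passed 1.5-fold. In B6.SLE123 over control 4 of the 10 genes were called higher, where 9.85% of all 11365 genes with at least 50 UMIs were, and 1 was called lower, where 6.76% were. In Ang II over control 2 of 10 were called higher, where 3.89% of 11331 genes were, and 0 lower, where 2.29% were. By hashtag populations, 3 genes lay above control in all 6 against all 6 populations of B6.SLE123 (9.79% of all genes) and 1 below (10.7%). In the Ang II library 2 lay above (7.87%) and 0 below (4.89%). The median log2 ratio of the 10 genes was 0.12 in B6.SLE123, beside −0.04 over all genes tested, and 0.20 in Ang II, beside 0.06 over all genes tested. Both comparisons share the control library. Since the 10 genes were chosen with earlier results of these data known, the shares over all genes are no unbiased yardstick for them.

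**Figure D1:**
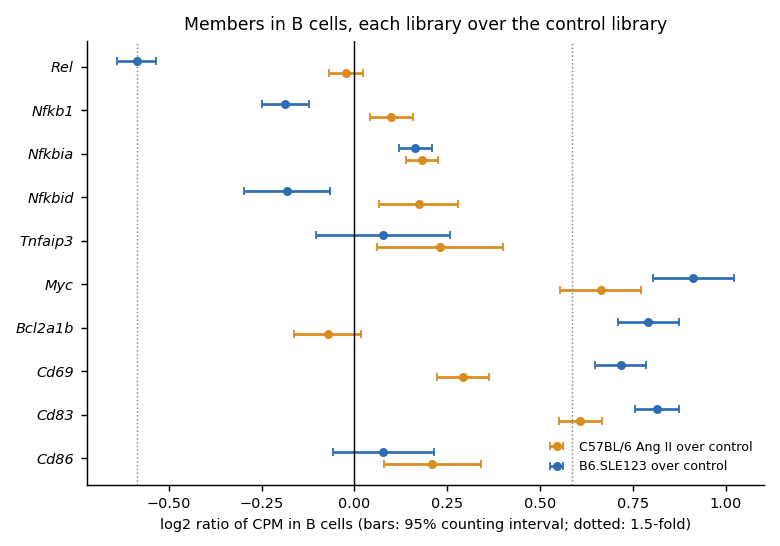
Log2 ratio of CPM in B cells of the B6.SLE123 library (blue) and of the C57BL/6 Ang II library (orange) over the C57BL/6 control library for the 10 genes; bars are 95% counting intervals and dotted lines mark 1.5-fold. Myc, Bcl2a1b, Cd69 and Cd83 lie right of the upper line in B6.SLE123, Rel lies at the lower line, and only Myc and Cd83 lie right of the upper line in Ang II.

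Rel (ENSMUSG00000020275, chr11:23736847-23770970 of GRCm38, minus strand) encodes c-Rel, the subunit most closely tied to lymphocyte growth. In control B cells its level was 267, 224, 263, 231, 239 and 257 CPM over hashtags C0301 to C0306. In B6.SLE123 B cells the same order gave 204, 156, 110, 165, 169 and 187 CPM. Every B6.SLE123 population was below every control population, and hashtag C0303 was the lowest of the 18. The library levels were 246 CPM in control and 164 CPM in B6.SLE123, a log2 ratio of −0.59 (−0.64 to −0.53). This is 1.501-fold, at the edge of the call, and the ratio left the call in 11 of 22 alternative settings, among them the removal of control hashtag C0301, C0303 or C0306 or of B6.SLE123 hashtag C0302 or C0303, without changing its direction in any of the 22. In Ang II B cells Rel was 302.2, 282, 251, 196, 222 and 227 CPM, a range that includes all the control values, and the library ratio was −0.02 (−0.07 to 0.02).

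Nfkb1 (ENSMUSG00000028163, chr3:135584655-135691547, minus strand) encodes p105, the precursor of p50. Over the hashtags it ranged from 140 to 160 CPM in control, from 150 to 176 CPM in Ang II and from 121 to 144 CPM in B6.SLE123. The B6.SLE123 populations overlapped the control range but lay wholly below the Ang II range. The ratio over control was −0.19 (−0.25 to −0.12) in B6.SLE123 and 0.10 (0.04 to 0.16) in Ang II, and B6.SLE123 over Ang II gave −0.29 (−0.34 to −0.23).

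The other 3 subunit genes gave the same picture of small differences. None of Rela, Relb and Nfkb2 passed 1.5-fold in either comparison. In B6.SLE123 their log2 ratios were −0.17 for Rela, −0.06 for Relb and −0.32 for Nfkb2, which encodes the precursor of p52 and was below control in all 6 against all 6 populations. In Ang II they were 0.33 for Rela, 0.31 for Relb and 0.19 for Nfkb2, with Rela and Relb above control in all populations.

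**Figure D2:**
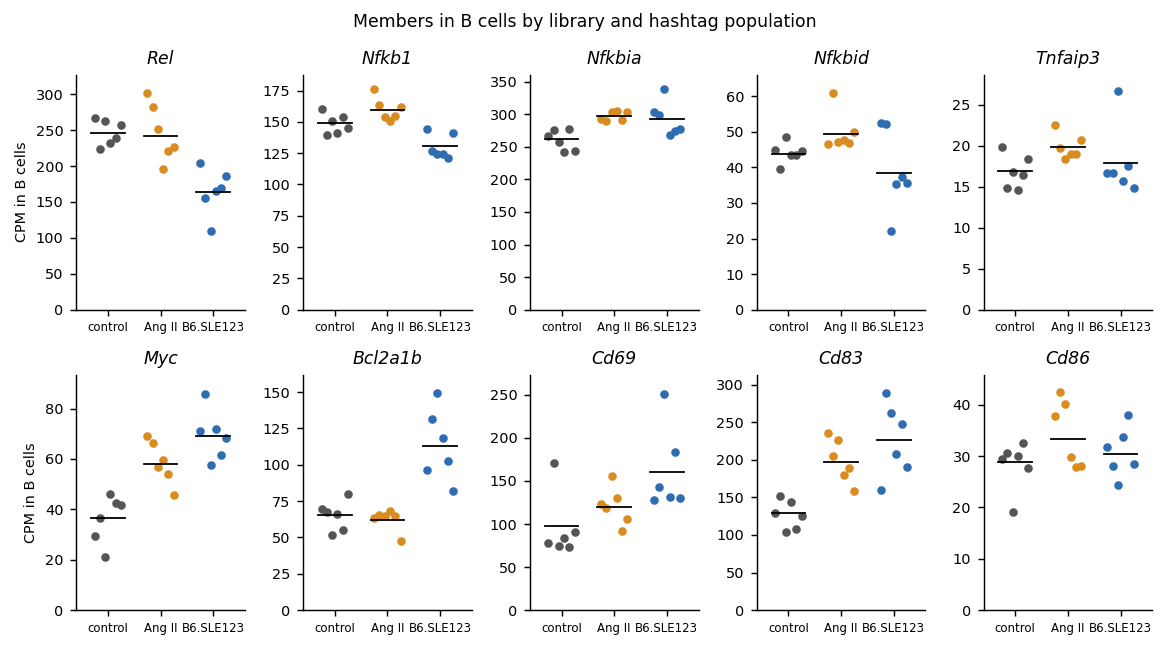
CPM of the 10 genes in B cells; each point is a hashtag population (C0301 to C0306 from left to right in each library) and each black line is the library level. Rel in B6.SLE123 lies below all control points, Myc, Bcl2a1b and Cd83 in B6.SLE123 lie above all of them, and Cd69 has high single points in the control (170 CPM) and B6.SLE123 (251 CPM) libraries.

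Nfkbia (ENSMUSG00000021025, chr12:55489410-55492647, minus strand) encodes I-kappa-B alpha, the inhibitor that is destroyed on activation and remade by NF-kB itself. Control B cells held 266, 275, 257, 243, 277 and 243 CPM over the hashtags. Ang II B cells held 292, 290, 303.04, 304.4, 290 and 302.8 CPM, all above the highest control value, and the library ratio was 0.18 (0.14 to 0.23). B6.SLE123 B cells held 303.2, 299, 339, 268, 274 and 278 CPM, overlapping control, with a ratio of 0.16 (0.12 to 0.21). Both ratios are well under 1.5-fold, although neither interval includes 0.

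Nfkbid (ENSMUSG00000036931, chr7:30421732-30428746, plus strand) encodes I-kappa-B NS, a nuclear member of the inhibitor family that works on promoters. Its control level was 44.9, 39.6, 48.7, 43.5, 43.3 and 44.6 CPM. In B6.SLE123 the populations spread far more widely, with 52.5 and 52.1 CPM in C0301 and C0302 but 22.0 CPM in C0303 and 35.4, 37.2 and 35.5 CPM in the other 3. The library ratio of −0.18 (−0.30 to −0.06) therefore averages populations above and below control. In Ang II it was 0.17 (0.07 to 0.28).

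Tnfaip3 (ENSMUSG00000019850, chr10:19000910-19015657, minus strand) encodes A20, an enzyme that edits ubiquitin and shuts off signals to NF-kB. Its libraries were close, at 17.0 CPM in control, 19.9 CPM in Ang II and 17.9 CPM in B6.SLE123. The ratio was 0.08 (−0.10 to 0.26) in B6.SLE123 and 0.23 (0.06 to 0.40) in Ang II. In B6.SLE123 hashtag C0303 reached 26.7 CPM and the other 5 lay between 14.9 and 17.5 CPM.

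Of 13 further inhibitors and brakes of the pathway 12 could be tested, and 0 of them passed 1.5-fold in either direction in either comparison. Over all genes 9.85% passed upward and 6.76% downward in B6.SLE123, and 3.89% and 2.29% in Ang II. The 12 inhibitors and brakes had a median log2 ratio of −0.08 in B6.SLE123 and 0.18 in Ang II. Bcl3, a nuclear I-kappa-B protein, had the highest ratio of the list in both, 0.47 in B6.SLE123 and 0.46 in Ang II. Tax1bp1, an adaptor of A20, had the lowest in both, −0.39 and −0.11. Next to these stood Nfkbiz (0.31) and Zc3h12a (−0.36) in B6.SLE123 and Otulin (0.35) and N4bp1 (−0.05) in Ang II. Among 21 kinases and adaptors upstream, the median was −0.31 in B6.SLE123 and 0.10 in Ang II. Of the 21, 6 lay below control in all 6 against all 6 populations in B6.SLE123 (10.7% of all genes). In Ang II 3 lay above (7.87% of all genes). Ikbkb, the main kinase of I-kappa-B alpha, was 84.5 CPM in B6.SLE123 and 124 CPM in control B cells, a ratio of −0.55. In B6.SLE123 1 of these genes passed 1.5-fold upward (Ikbke, at 8.5 against 5.6 CPM) and 1 downward (Tab1, at 3.0 against 4.9 CPM). Myd88, the adaptor of Toll-like receptors, was at 0.44 in B6.SLE123 and 0.34 in Ang II, where Traf6 (−0.22) and Chuk (−0.10) were lowest.

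Myc (ENSMUSG00000022346, chr15:61985391-61990374, plus strand) encodes the transcription factor that drives cell growth before division and is an early NF-kB target in B cells. Control populations held 29.5, 36.6, 21.1, 46.0, 42.3 and 41.8 CPM. B6.SLE123 populations held 71.3, 85.7, 57.6, 71.7, 61.6 and 68.3 CPM, all above control. The library levels were 36.7 and 69.1 CPM, a ratio of 0.91 (0.80 to 1.02), or 1.88-fold. Ang II populations held 69.1, 66.5, 56.97, 59.4, 54.1 and 45.6 CPM, of which the lowest was within the control range by 0.4 CPM, and the library ratio was 0.66 (0.55 to 0.77).

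The Ang II ratio of Myc depended on which cells were counted. In B cells under 3500 UMIs Myc was 31.3 CPM in control and 32.8 CPM in Ang II, and at or above 3500 UMIs it was 55.3 and 89.1 CPM. Cells at or above 3500 UMIs were 9.45% of control and 26.9% of Ang II B cells, and since the Ang II library was counted more deeply the same cut does not take like cells from both. With the cell limits read as UMIs, which leaves these cells out, the Ang II ratio of Myc was 0.07 (−0.09 to 0.22). With every cell thinned to 1000 UMIs it was 0.71 (0.51 to 0.90). In B6.SLE123 Myc was higher on both sides, at 57.01 CPM in B cells under 3500 UMIs and 89.96 CPM above. This split by UMIs per cell was chosen after the data were seen.

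Genes that MYC acts on were mostly higher in B6.SLE123 B cells. Of 24 MYC target and growth genes 4 passed 1.5-fold upward and 0 downward in B6.SLE123, 15 lay above control in all populations, and the median was 0.44, beside 9.85%, 6.76% and 9.79% of all genes and a median of −0.04 over them. Ldha, an enzyme of glycolysis, had the highest ratio at 0.80 (296 against 170 CPM), followed by the chaperone gene Hspd1 at 0.78 (257 against 150 CPM). The lowest were Cad at −0.22 and Wdr43 at −0.18. In Ang II 0 of the 24 passed in either direction, where 3.89% of all genes passed upward and 2.29% downward, and the median was 0.02, with Wdr43 (0.54) and Eif4a1 (0.52) highest and Ccnd2 (−0.37) and Nme1 (−0.31) lowest. The difference between the comparisons was not tested, and the list was chosen with earlier results of these data known.

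Bcl2a1b (ENSMUSG00000089929, chr9:89199209-89207827, plus strand) encodes an A1 protein of the BCL-2 family that protects B cells from death. Control populations held 69.3, 67.6, 51.3, 65.8, 55.1 and 80.2 CPM, and Ang II populations 63.1, 65.3, 64.9, 67.9, 64.4 and 47.4 CPM. B6.SLE123 populations held 96.5, 132, 149, 118, 103 and 82.1 CPM, each above every population of the other libraries. The B6.SLE123 ratio was 0.79 (0.71 to 0.87) over control and 0.86 (0.79 to 0.94) over Ang II, and the Ang II ratio over control was −0.07 (−0.16 to 0.02). In B cells at or above 3500 UMIs alone the B6.SLE123 ratio over control was 0.43, under 1.5-fold.

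The mouse carries several near-identical A1 genes, so the split of reads among them is uncertain. The GENCODE transcripts of Bcl2a1b and Bcl2a1d are identical at 810 of 817 aligned bases, and those of Bcl2a1b and Bcl2a1a at 802 of 817. Bcl2a1d had 27.0 CPM in control, 24.3 CPM in Ang II and 50.2 CPM in B6.SLE123 B cells, the same order as Bcl2a1b. Bcl2a1a had 23, 12 and 41 UMIs in the 3 libraries, and Bcl2a1c had 0 UMIs in all of them, which allows up to 0.108 CPM in control. In the annotation Bcl2a1b also overlaps a predicted gene on the same strand, Gm29094, which the matrices do not list.

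Several marker lists of other cells were also higher in the B6.SLE123 B cells. The 9 macrophage markers summed to 2.35 to 7.20 CPM over control hashtags and to 5.31 to 23.5 CPM over B6.SLE123 hashtags, and the 6 migratory dendritic cell markers to 3.09 to 5.17 and 6.26 to 16.4 CPM. In their own classes these lists summed to 17698 and 5259 CPM in B6.SLE123, and none of the markers was at 0 in B cells of these 2 libraries. The 9 monocyte markers spanned 17.4 to 57.3 CPM in control and 25.3 to 74.2 CPM in B6.SLE123 B cells, and the 9 neutrophil markers 38.8 to 143 and 114 to 184 CPM. The 7 plasma cell markers, at 117 to 168 and 270 to 389 CPM, and the migratory dendritic cell markers did not overlap, and the other ranges did. The 4 cDC1 markers were level, at 4.72 and 4.81 CPM over the whole libraries. Bcl2a1b itself was 1150 CPM in migratory dendritic cells, 435 in macrophages, 240 in monocytes, 222 in cDC1, 14.2 in neutrophils and 6.60 in plasma cells of B6.SLE123. Their part in the Bcl2a1b difference was not tested.

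Cd69 (ENSMUSG00000030156, chr6:129267325-129275436, minus strand) encodes an early activation antigen that keeps lymphocytes in the tissue. Control populations held 78.0, 170, 74.2, 84.3, 73.6 and 91.1 CPM, with C0302 far above the other 5. B6.SLE123 populations held 128, 143, 251, 132, 184 and 130 CPM, and Ang II populations 124, 119, 156, 131, 91.5 and 106 CPM. The B6.SLE123 range began above 5 of the 6 control populations and below the sixth. The library ratio was 0.72 (0.65 to 0.79) in B6.SLE123 and 0.29 (0.22 to 0.36) in Ang II. Without B6.SLE123 hashtag C0303 it was 0.54, under 1.5-fold, and without control hashtag C0302 it was 0.996.

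Cd69 moved with Jun, Fos and Junb, immediate early genes that the handling of cells can also induce. Over the 18 hashtag populations the genes most like Cd69 among 5529 compared were Jun (Pearson r = 0.93), Fos (r = 0.91) and Junb (r = 0.91). These r values are descriptions over populations that share 3 libraries. Jun was 146 CPM in control C0302 against 60.2 to 75.5 CPM in the other control hashtags, and 266 CPM in B6.SLE123 C0303 against 147 to 204 CPM in the other 5. Of 20 immediate early and cell handling genes 7 passed 1.5-fold upward and 1 downward in B6.SLE123, where 9.85% and 6.76% of all genes did. The median of the list was 0.50, led by Atf3 (2.18, at 3.1 against 0.7 CPM) and Fos (1.67, at 50.9 against 16.0 CPM), with Klf4 (−0.87) and Nr4a1 (−0.52) lowest. In Ang II 6 of 19 passed upward and 0 downward, where 3.89% and 2.29% of all genes did. The median of the list was 0.41, led by the heat shock genes Hspa1a (1.84) and Hspa1b (1.81), with Klf4 (−0.36) and Jund (−0.01) lowest. The summed level of the list was 2587 to 3783 CPM over control hashtags, 3668 to 5076 CPM over Ang II and 3865 to 4647 CPM over B6.SLE123 hashtags. The sum did not follow Cd69 in every library. In control both were highest in C0302. In B6.SLE123 the sum was lowest in C0303 (3865 CPM), where Cd69 was highest. In Ang II the sum was highest in C0301 (5076 CPM) and Cd69 in C0303. The part of cell handling in the Cd69 difference was not tested.

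Cd83 (ENSMUSG00000015396, chr13:43784775-43803132, plus strand) encodes a surface protein that stabilises MHC class II and CD86 on activated B cells and dendritic cells. It was the only gene of the 10 that passed 1.5-fold and was free of overlap in both comparisons. Control populations held 130, 153, 103, 144, 107 and 125 CPM. Ang II populations held 236, 205, 226, 179, 189 and 158 CPM, and B6.SLE123 populations 160, 289, 262, 208, 248 and 190 CPM. The library ratio was 0.82 (0.76 to 0.87) in B6.SLE123 and 0.61 (0.55 to 0.67) in Ang II. The Ang II value was close to 1.5-fold and was under it in 8 of 22 alternative settings, with the same direction in all 22. Among these were the removal of control hashtag C0303 (0.57) or C0305 (0.56) and of Ang II hashtag C0301 (0.55) or C0303 (0.57).

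Cd86 (ENSMUSG00000022901, chr16:36603869-36666081, minus strand) encodes a costimulatory ligand for CD28 on T cells, and unlike Cd83 it was nearly level. Its libraries were at 28.9, 33.4 and 30.5 CPM in control, Ang II and B6.SLE123. The ratio was 0.08 (−0.06 to 0.22) in B6.SLE123 and 0.21 (0.08 to 0.34) in Ang II. The hashtag ranges were 19.1 to 32.6, 27.8 to 42.5 and 24.3 to 38.1 CPM, and all of them overlapped.

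The other activation genes differed in both directions. Of 21 tested B cell activation genes 3 passed 1.5-fold upward and 1 downward in B6.SLE123, with a median of 0.10, shares near those over all genes (9.85% and 6.76%). Batf, a partner of AP-1 factors in class switching, was 37.3 against 15.9 CPM (1.23), and Egr2 was 3.8 against 2.0 CPM (0.92). Icosl, the ligand of ICOS on T cells, was 64.5 against 104 CPM (−0.69), and Gpr183, an oxysterol receptor that positions B cells, was 72.2 against 108 CPM (−0.58). In Ang II 1 passed upward, Egr2 (0.99), and 0 downward, where 3.89% and 2.29% of all genes did. The median was 0.20, with Cd200 next at 0.58 and Mir155hg and Egr3 lowest, both at −0.31. Of the 26 other NF-kB targets tested in B6.SLE123, 8 passed upward and 0 downward, where 9.85% and 6.76% of all genes did, with a median of 0.47. The 8 included Bcl2a1d (0.89), whose reads may not separate from those of Bcl2a1b. The lists share some genes, among them Junb and Ccnd2, so their counts are not independent. Cxcl10, a chemokine that interferon also induces, had the largest ratio at 5.15 (3.77 to 7.05), from 4 UMIs in control and 160 in B6.SLE123, and Cd80, the other CD28 ligand, followed at 1.24 (127 against 48 UMIs). Birc3 (−0.43) and Ltb (−0.42) were lowest and lay below control in all populations. In Ang II 2 of 24 targets passed upward, Stx11 (0.85) and Tnfsf9 (0.62), and 0 downward, where 3.89% and 2.29% of all genes did. The median was 0.11, with Ccnd2 (−0.37) and Marcks (−0.22) lowest. Of 12 quiescence genes 0 passed in either direction in B6.SLE123, where 9.85% of all genes passed upward and 6.76% downward. The median was −0.24, with Foxp1 (−0.50) and Bach2 (−0.41) lowest and Ccr6 (0.43) and Btg1 (0.16) highest. In Ang II 1 of them passed upward, Btg1 (0.59), where 3.89% of all genes did. The median was 0.22, with Tsc22d3 next at 0.58 and Btg2 (0.05) and Bach2 (0.07) lowest.

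**Figure D3:**
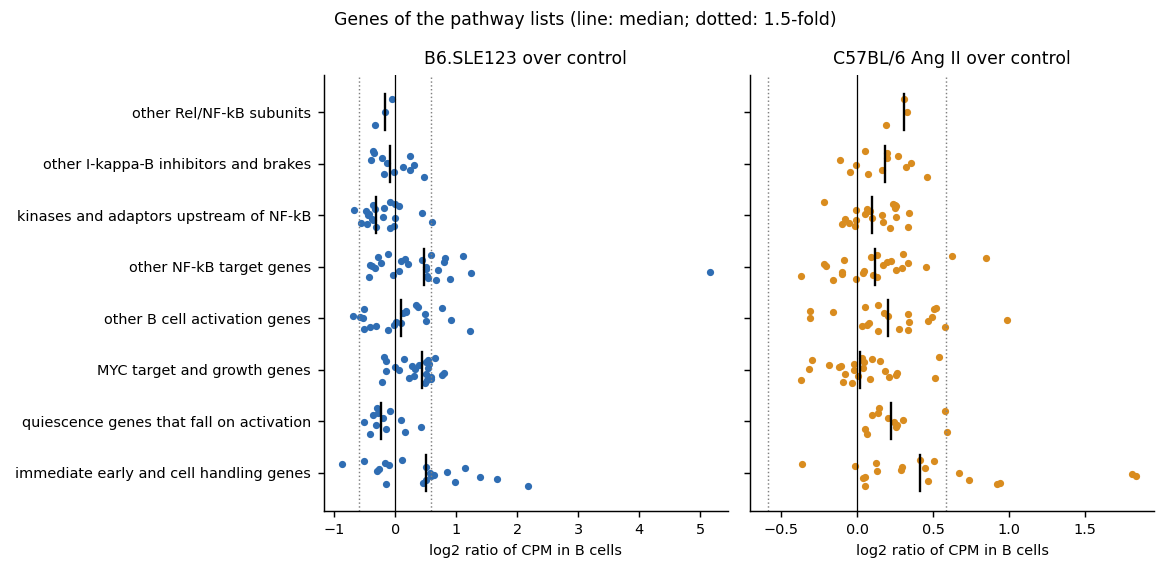
Log2 ratio of CPM in B cells of B6.SLE123 (left) and C57BL/6 Ang II (right) over control for the genes of 8 pathway lists with at least 50 UMIs over both libraries; each point is a gene, the black line is the median and dotted lines mark 1.5-fold. The medians of MYC targets (0.44) and immediate early genes (0.50) lie right of 0 in B6.SLE123 and that of upstream kinases lies left (−0.31).

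Follicular and marginal zone B cells differed in most of these genes in every library. Follicular cells recirculate and answer T cell-dependent antigen, and marginal zone cells sit at the blood sinus and respond fast to blood-borne antigen. In all 18 hashtag populations Myc and Cd86 were higher in marginal zone than in follicular cells, and in all 18 Rel, Nfkbia, Cd69 and Cd83 were lower. Nfkb1 was lower in 17 and Tnfaip3 in 16 of the 18. Nfkbid had no such order, being higher in marginal zone cells in 10 and lower in 8. The share of all genes with the same order in all 18 was not computed, so the counts do not set these genes apart. Marginal zone cells also held more UMIs per cell, 2963 against 1959 in control, 4183 against 2878 in Ang II and 3044 against 2039 in B6.SLE123.

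In control cells the log2 ratio of marginal zone over follicular was 1.06 (0.80 to 1.32) for Myc, at 58.4 against 28.1 CPM, and 0.75 (0.45 to 1.04) for Cd86. It was −0.88 (−1.05 to −0.71) for Cd83, −0.83 (−0.95 to −0.72) for Nfkbia, −0.71 (−0.90 to −0.53) for Cd69 and −0.49 (−0.61 to −0.38) for Rel. In B6.SLE123 the values were 1.06 for Myc, 0.92 for Cd86, −1.02 for Cd83, −0.73 for Nfkbia, −0.69 for Cd69 and −0.58 for Rel, with the signs of control. For Bcl2a1b the ratio was 0.74 (0.55 to 0.93) in control, 0.96 (0.78 to 1.13) in Ang II and −0.17 (−0.35 to 0.01) in B6.SLE123. It was higher in marginal zone cells in 6 of 6 hashtag populations of control, 6 of 6 of Ang II and 2 of 6 of B6.SLE123, and the difference between libraries was not tested.

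Inside single subsets some of the library differences were larger than in all B cells, some were about as large and others were smaller. In follicular cells B6.SLE123 over control gave 1.11 (0.92 to 1.299) for Bcl2a1b, 1.07 (0.96 to 1.19) for Cd83, 0.90 (0.62 to 1.18) for Myc, 0.87 (0.73 to 1.01) for Cd69 and −0.34 (−0.46 to −0.23) for Rel. In marginal zone cells the same comparison gave 0.93 (0.75 to 1.11) for Cd83, 0.90 (0.69 to 1.12) for Myc, 0.90 (0.70 to 1.09) for Cd69 and −0.42 (−0.56 to −0.28) for Rel, but only 0.20 (0.02 to 0.38) for Bcl2a1b. By hashtags, Bcl2a1b in follicular cells was 43.9 to 72.8 CPM in control and 91.6 to 191 CPM in B6.SLE123 without overlap, and in marginal zone cells 52.9 to 156 and 78.0 to 133 CPM with overlap. Rel was under 1.5-fold in both subsets and its hashtag ranges overlapped, as did those of Cd69 in both and of Cd83 in marginal zone cells. Myc was free of overlap in marginal zone cells, at 34.3 to 70.8 CPM in control, 78.3 to 153 CPM in Ang II and 77.5 to 143 CPM in B6.SLE123, while its follicular ranges overlapped control in both libraries. Cd83 was free of overlap in follicular cells, at 122 to 165 CPM in control, 174 to 263 CPM in Ang II and 205 to 506 CPM in B6.SLE123. The share of all genes free of overlap inside these subsets was not computed, so these orders have no yardstick.

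**Figure D4:**
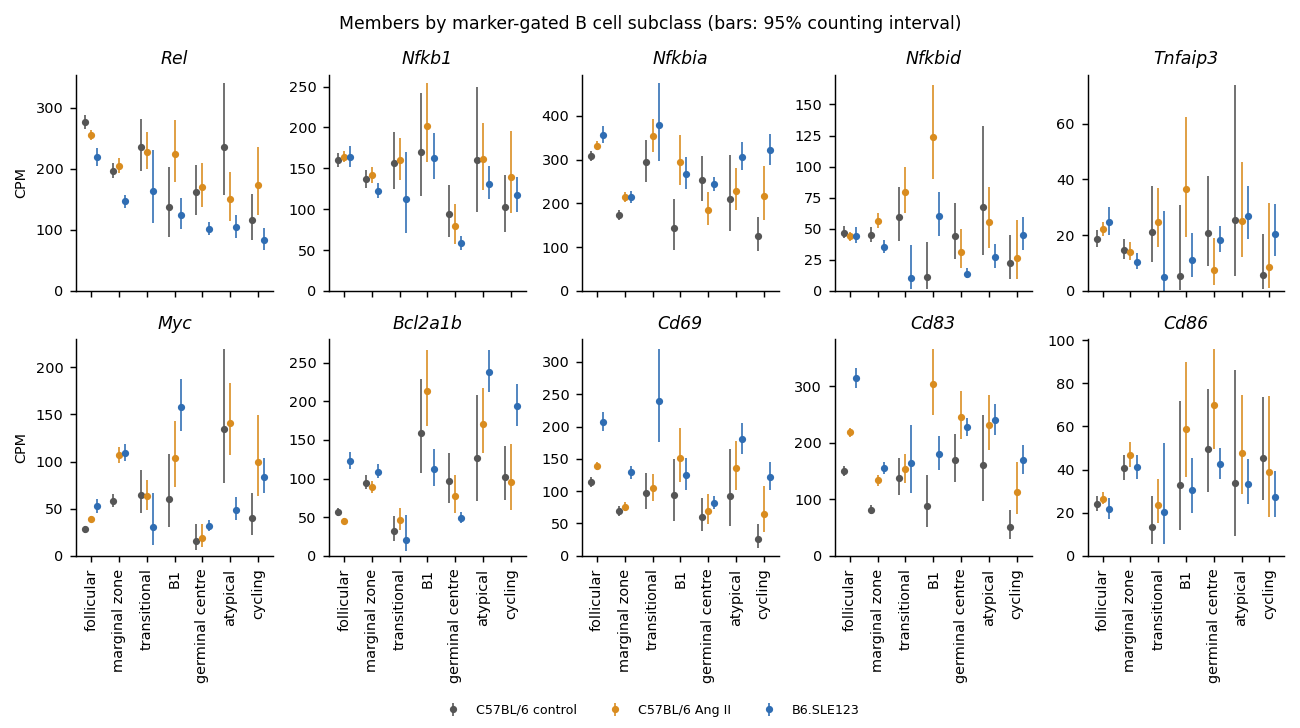
CPM of the 10 genes in B cell subclasses gated by markers, for control (grey), Ang II (orange) and B6.SLE123 (blue); bars are 95% counting intervals. Myc is higher and Cd83, Nfkbia, Cd69 and Rel are lower in marginal zone than in follicular cells of all 3 libraries, and the wide bars belong to subclasses of few cells.

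By the marker gates the B6.SLE123 library also differed in the make-up of its B cells. Germinal centre cells, in which B cells mutate and select their receptors, were 0.526% (exact binomial 95% interval 0.411 to 0.665) of control B cells, 0.796% (0.642 to 0.975) of those in Ang II and 4.78% (4.42 to 5.16) of those in B6.SLE123. Atypical cells, marked by T-bet and CD11c genes and common in lupus, were 0.203% (0.134 to 0.295), 0.562% (0.434 to 0.716) and 2.25% (1.998 to 2.51). Follicular cells were 31.0%, 39.9% and 14.6%. Over the hashtags germinal centre cells were 0.0450 to 1.34% in control, 0.217 to 1.39% in Ang II and 2.09 to 7.26% in B6.SLE123. Atypical cells were 0.0991 to 0.394%, 0.279 to 0.885% and 0.511 to 7.92%. Follicular cells were 27.0 to 34.0%, 39.0 to 42.3% and 12.8 to 16.4%. The binomial intervals cover the counting of cells only. The rest of the gate, without a subclass, was the largest share in every library, at 54.1% in control, 44.2% in Ang II and 61.5% in B6.SLE123. A subclass needs detected markers, so its share can rise with the UMIs per cell, which were most in Ang II. The part of depth in the shares was not tested.

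Germinal centre cells of B6.SLE123 (622 cells) held 31.4 CPM of Myc, 58.3 CPM of Nfkb1, 101 CPM of Rel and 13.6 CPM of Nfkbid, all below its follicular cells at 52.3, 164, 219 and 44.6 CPM. Atypical cells of B6.SLE123 (292 cells) had 238 CPM of Bcl2a1b (212 to 267), against 123 CPM in its follicular cells, and 104 CPM of Rel. These cells were 7.92% of B cells in hashtag C0303, the population with the lowest Rel and Nfkbid and the highest Bcl2a1b and Cd69, and between 0.511% and 2.89% in the other 5. For Cd69 atypical cells of B6.SLE123 held 180 CPM, below its follicular cells at 208 CPM. The part of atypical cells in the C0303 values was not tested. With germinal centre, plasma, cycling and atypical cells left out of B cells, the B6.SLE123 ratio of Rel was −0.47, under 1.5-fold, and Myc, Cd69, Cd83 and Bcl2a1b stayed past it.

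Over the 18 hashtag populations of B cells Rel and Nfkb1 went together (Pearson r = 0.84), and both went against Bcl2a1b (r = −0.83 and −0.81). After the mean of each library was removed the values were 0.68, −0.45 and −0.46. The gene most like Rel among the 5529 was Nfatc3 (r = 0.96), then Sms and Ptprj (both r = 0.94). Cd83 was most like Siah2 (r = 0.95), Pkm (r = 0.93) and Ybx1 (r = 0.92). Bcl2a1b was most like Pold4, Bcl2a1d and Atp5c1 (all r = 0.94), and Myc most like Rtcb (r = 0.92), Suclg2 (r = 0.89) and Ctse (r = 0.88). Nfkb1 was most like Prpf4b (r = 0.93), Tm9sf2 and Socs5 (both r = 0.92), and Nfkbia most like Max (r = 0.90), Dok1 (r = 0.85) and Stat3 (r = 0.84). Nfkbid was most like Safb (r = 0.87), Nfx1 (r = 0.86) and Cdk8 (r = 0.83), Tnfaip3 like Rp2 (r = 0.85), Plek (r = 0.82) and Limd2 (r = 0.79), and Cd86 like Bmp2k (r = 0.83), Dusp16 and Dgcr2 (both r = 0.80). The populations share libraries and differ in depth and cell make-up, so these are descriptions only.

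Outside B cells Cd83, Nfkbia, Bcl2a1b, Cd69, Rel, Tnfaip3, Nfkb1 and Cd86 reached higher levels in some other classes. Migratory dendritic cells, which mature as they leave for the T cell zone, had 1069 CPM of Cd83 and 1006 CPM of Nfkbia in control (22 cells) and 671 and 850 CPM in B6.SLE123 (40 cells), each far above the B cells of the same library. They had 1845 and 1150 CPM of Bcl2a1b. In control they also had 440 CPM of Rel and 252 CPM of Tnfaip3, against 246 and 17.0 CPM in B cells. In B6.SLE123 Nfkb1 was 419 CPM in type 2 conventional dendritic cells (26 cells) and Cd86 243 CPM in cDC1, against 131 and 30.5 CPM in B cells. Nfkbid in control migratory dendritic cells (168 CPM) and Myc in Ang II erythroid cells (104 CPM) rested on 8 and 10 UMIs. Basophils had 552 CPM of Cd69 in control, 965 in Ang II and 505 in B6.SLE123. Cd83 was 0.940, 6.43 and 3.31 CPM in NK cells of these libraries and 3.16, 1.99 and 1.46 CPM in neutrophils, against 129, 197 and 227 CPM in B cells. Plasma cells of B6.SLE123 (165 cells), the secreting end of the B lineage, had 7.20 CPM of Rel and 13.2 CPM of Nfkb1, against 164 and 131 CPM in B cells. They had 0 UMIs of Cd86 and of Nfkbid, which allows up to 1.80 CPM.

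**Figure D5:**
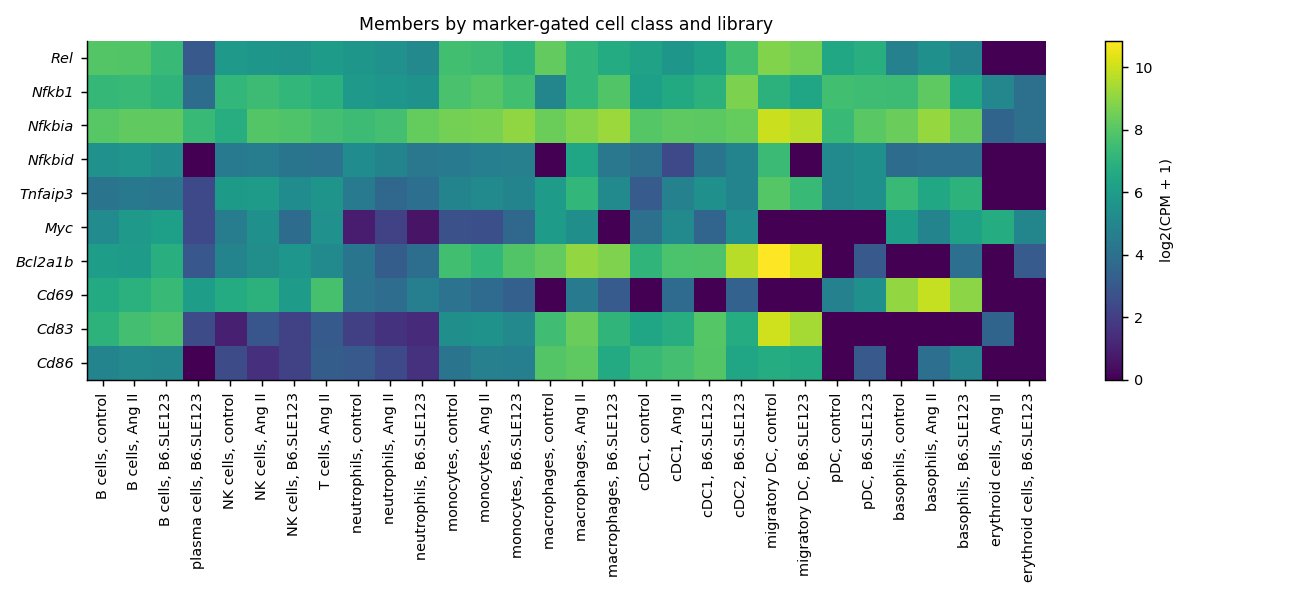
Heat map of log2(CPM + 1) of the 10 genes in cell classes gated by markers, for each library with at least 20 cells of the class. Migratory dendritic cells are brightest for Cd83, Nfkbia and Bcl2a1b, basophils for Cd69, and plasma cells are dark for the subunits Rel and Nfkb1.

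Nfkbia differed between libraries in cells other than B cells. In NK cells its hashtag populations lay at 72.2 to 141 CPM in control, 193 to 330 CPM in Ang II and 153 to 316 CPM in B6.SLE123, so that both libraries were wholly above control. The library ratio was 1.17 (0.85 to 1.495) in Ang II and 1.11 (0.78 to 1.46) in B6.SLE123. It rested on 115 UMIs of Nfkbia in control, 264 in Ang II and 212 in B6.SLE123. In neutrophils the ranges were 141 to 199, 157 to 247 and 248 to 474 CPM, and B6.SLE123 was wholly above control and Ang II, with a ratio of 0.85 (0.63 to 1.08) over control. The share of all genes without overlap was not computed for NK cells or neutrophils, so these orders have no yardstick. In monocytes the B6.SLE123 ratio was 0.48 (0.32 to 0.63), with overlapping ranges. Rel in monocytes was −0.53 (−0.80 to −0.27) in B6.SLE123, but its hashtag ranges overlapped, at 151 to 230 CPM with a median of 175 in control and 88.1 to 185 CPM with a median of 168 in B6.SLE123, where hashtag C0303 held 249 of the 606 monocytes and was the lowest. Myc in NK cells rested on 25, 46 and 12 UMIs, at 23.5, 42.3 and 13.2 CPM in control, Ang II and B6.SLE123.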

How the data were processed

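The authors deposited raw UMI counts per gene and hashtag. File headers name Cell Ranger 6.0.0, and the submitters' processing notes name mm10. Members and lists were chosen with earlier results of these data known. Barcodes with over 200 and under 3500 genes and under 15% mitochondrial UMIs were kept, limits which the study states as RNA counts. Barcodes positive for several hashtags (Otsu threshold on log counts) were removed as doublets, and doublets within a hashtag could not be seen. The libraries shared 415 to 496 barcodes in pairs. A cell took the class whose markers it had in the largest share, with at least 2 markers and 3 marker UMIs, and was left out if another class reached over 50% of that share. In each library 295 to 352 kept cells had 2 or 3 B marker UMIs, within 1 of the limit. B cells took a subclass with at least 2 of its markers, in the order germinal centre, cycling, atypical, B1, transitional, then follicular (Fcer2a detected) or marginal zone (Fcer2a not detected), and the rest had none. Counts were summed by class or hashtag (no cell is a replicate) and given as CPM with exact Poisson intervals. Ratios have exact conditional intervals. Floors for 0 are 3 counts. A ratio past 1.5-fold with at least 50 UMIs was a call. The code was tested on simulated data. Named genes were the members, the 2 highest and 2 lowest ratios of each list, and the 3 genes most like each member by Pearson r of log2(CPM + 1) at 20 CPM or more. A gene that this rule names is not reported here. The Bcl2a1 copies are named because they share sequence with a member. Positions are GENCODE vM21 on GRCm38. Python 3.11.15, scipy 1.17.1 and edgeR 4.0.16 (for TMM scaling) were used.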

Additional observations from a re-analysis of the deposited data

Results flagged for a closer look

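In 5 of the 30 sets of 6 hashtag populations (10 genes in B cells of 3 libraries) the highest or lowest population stood apart by Dixon's criterion, which chance alone meets in about 1 of 20 sets. Cd69 was 170.5 CPM in control hashtag C0302, with the other 5 at 73.6 to 91.1 CPM. Cd86 was 19.1 CPM in control hashtag C0303, the control population with the fewest UMIs per cell, with the others at 27.6 to 32.6 CPM. Nfkbid was 61.0 CPM in Ang II hashtag C0302, with the others at 46.5 to 49.98 CPM. Tnfaip3 was 26.7 CPM in B6.SLE123 hashtag C0303, with the others at 14.9 to 17.5 CPM. Bcl2a1b was 47.4 CPM in Ang II hashtag C0306, with the others at 63.1 to 67.9 CPM. The labels do not say which condition any of these hashtags marks, and the cause was not tested.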

How the results depend on the processing

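The median log2 ratio of the 10 genes stayed above 0 in all settings tried, at 0.116 to 0.155 in B6.SLE123 and 0.172 to 0.219 in Ang II when each hashtag was left out in turn. In B cells at or above 3500 UMIs alone, a setting chosen after the data were seen, it was 0.39 and 0.32. Members called higher in B6.SLE123 numbered 3 to 4 with a hashtag left out and 0 at 2-fold. Members called lower numbered 0 to 1 with a hashtag left out, and 0 with cell limits read as UMIs, without germinal centre, plasma, cycling and atypical cells, with TMM scaling, with cells thinned to 1000 UMIs, with the median over hashtags, in cells at or above 3500 UMIs alone and at 2-fold. Members called higher in Ang II numbered 1 to 2 with a hashtag left out, 0 with limits read as UMIs or at 2-fold, and 1 without doublet removal, with TMM scaling, with thinning or with the median over hashtags. List genes called in B6.SLE123 went from 23 higher and 3 lower to 8 and 0 at 2-fold. In Ang II they went from 10 higher to 2 at 2-fold, and from 0 lower to 3 with no filter on low counts. No called gene changed direction. The cause of these changes was not tested. No paired analysis was possible because each group is 1 library.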
